A study of Mus musculus with 7 samples.

Results

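The genes described here encode enzymes of haem synthesis: Alas1, Alas2, Alad, Uros, Urod, Cpox, Ppox and Fech. They were chosen by name, with earlier results of these data known. All 8 were found among the 38924 genes counted and among the 15548 genes of the authors' deposited table. Polyadenylated RNA of the fetal mouse liver, taken at 12.5 days post coitum, had been sequenced in 3 samples labelled as knockout (KO) for Pcbp2, which encodes a poly(C)-binding protein, and in 4 labelled wild type (WT). The labels name no knockout allele, strain, sex, litter or treatment, and they do not say whether each sample was a separate fetus, so p-values measure only the spread between these libraries, which may be technical. Each KO library held 31898339 to 42378821 reads in genes and each WT library 32240949 to 44544889.

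Haem is an iron-containing porphyrin that carries oxygen in haemoglobin and electrons in cytochromes. Its synthesis begins in the mitochondrion, passes through the cytosol and returns to the mitochondrion, where iron is inserted in the last step. Red cell precursors make most of the haem of the body, and the fetal liver is the main site of red cell formation at this stage. The first step is served by a pair of isoenzymes: Alas1 is used in all tissues, whereas Alas2 is the erythroid form and limits the rate of haem synthesis in red cell precursors.

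Erythroid factors such as GATA1 and KLF1 are known to act on promoters of haem genes, so the sequences around the starts of these genes are shown. Promoter windows of RefSeq on GRCm38.p6, from 250 bases before to 50 bases after the annotated start, were given for 7 of the 8 genes, as 10 windows in all. They are printed for Alas2 and for the other genes whose windows hold GATAA, the core letters bound by GATA1, and for Alas1 as the contrasting isoenzyme. Capitals mark GATAA on either strand, read as TTATC where it lies on the other strand, and the palindrome bound by NRF1, a regulator of mitochondrial genes.
Alas2 (chrX:150547167-150547466, + strand): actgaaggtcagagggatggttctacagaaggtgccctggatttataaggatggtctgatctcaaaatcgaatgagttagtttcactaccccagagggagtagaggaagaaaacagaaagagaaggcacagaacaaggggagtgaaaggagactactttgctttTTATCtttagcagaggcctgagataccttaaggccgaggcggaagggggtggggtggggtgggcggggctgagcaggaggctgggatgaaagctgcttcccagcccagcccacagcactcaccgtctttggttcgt
Uros, the downstream one of its windows (chr7:133702451-133702750, − strand): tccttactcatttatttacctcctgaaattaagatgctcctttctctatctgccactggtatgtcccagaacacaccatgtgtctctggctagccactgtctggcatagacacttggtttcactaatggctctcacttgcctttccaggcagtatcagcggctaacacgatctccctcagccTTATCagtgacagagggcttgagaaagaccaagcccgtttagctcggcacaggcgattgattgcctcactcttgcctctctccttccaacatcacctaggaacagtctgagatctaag
Cpox (chr16:58669958-58670257, + strand): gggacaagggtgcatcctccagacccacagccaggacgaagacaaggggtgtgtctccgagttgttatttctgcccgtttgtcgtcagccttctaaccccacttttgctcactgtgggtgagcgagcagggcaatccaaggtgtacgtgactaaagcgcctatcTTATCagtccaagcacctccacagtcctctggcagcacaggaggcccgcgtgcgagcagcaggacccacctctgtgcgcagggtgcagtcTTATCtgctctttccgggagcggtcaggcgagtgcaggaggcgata
Alas1, the downstream one of its windows (chr9:106247681-106247980, − strand): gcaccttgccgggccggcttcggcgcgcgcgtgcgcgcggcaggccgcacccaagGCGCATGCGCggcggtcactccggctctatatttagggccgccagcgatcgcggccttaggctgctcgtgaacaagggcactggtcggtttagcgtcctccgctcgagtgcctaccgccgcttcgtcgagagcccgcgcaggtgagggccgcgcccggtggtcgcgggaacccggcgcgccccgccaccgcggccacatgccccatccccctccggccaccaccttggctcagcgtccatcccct
GATAA stood 86 bases before the start in Alas2, 68 before it in Uros, and both 86 before and 4 after it in Cpox. Searched on both strands, GATAA was found in 3 of the 10 windows, against 25.4% of the 32851 mouse windows of the same length. CCNCNCCCN, the letters bound by KLF1, was found in 9 of the 10 windows, against 49.4% of all windows. The NRF1 palindrome was found in 2 of the 10 windows, those of Alas1, which overlap and share the same site, against 0.971% of all windows. A match is only a run of letters in the window.

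The transcript of Alas2 carries a further known control element, an iron-responsive element in its 5′ untranslated region, to which iron regulatory proteins bind when iron is scarce. In the principal transcript of the GENCODE M21 annotation this region is 126 bases long, and the loop letters CAGTG, in capitals, occur in it 1 time, beginning 96 bases from the transcript start. The 30 bases around the loop, on the + strand and across an exon junction, lie between 150547458 and 150552150 on chromosome X of GRCm38.
Alas2 iron-responsive element: ttggttcgtcctCAGTGcagggcaacagga

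Of the 8 enzymes, 5 fell in KO fetal livers and none rose, by edgeR's quasi-likelihood test with Benjamini-Hochberg adjustment over all genes. Alas2 fell most, to 29.1% of its WT level. Fech, Urod, Alad and Uros, which serve the last step and steps between, fell to between 49.6% and 57.8% of WT. Cpox and Ppox had KO means of 60.4% and 63.0% of the WT means and did not pass the test, and Alas1, the housekeeping isoenzyme, had 106%. Among all 16226 genes tested, 3.43% fell and 1.59% rose. DESeq2 called 7 of the 8 lower, against 6.48% of all genes, and none higher, and no enzyme was higher at an unadjusted p under 0.05. The count of 5 was 2 without KO replicate 5 (0.706% of all genes), 3 without KO replicate 4 (1.48%) or WT replicate 3 (1.78%), 4 without WT replicate 1 (2.26%) or 4 (2.02%), 5 without KO replicate 3 (2.92%) and 7 without WT replicate 2 (4.73%), and Alas2 and Alad passed the test in all of those fits. The median log2 fold change, KO over WT, was −0.83 over the 8 enzymes and 0.01 over all genes tested. Reads that fell in no gene were 6.75% to 7.61% of the reads passed to counting in KO and 4.89% to 5.94% in WT. Reads not aligned uniquely were 11.3% to 14.7% in KO and 15.2% to 19.6% in WT. The groups did not overlap in either measure. No unaligned reads were recorded, so these are not shares of all reads sequenced. The part of these library differences in the enzymes' changes was not tested. In bulk tissue, fewer red cell precursors and less RNA per cell cannot be told apart.

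**Figure D1:**
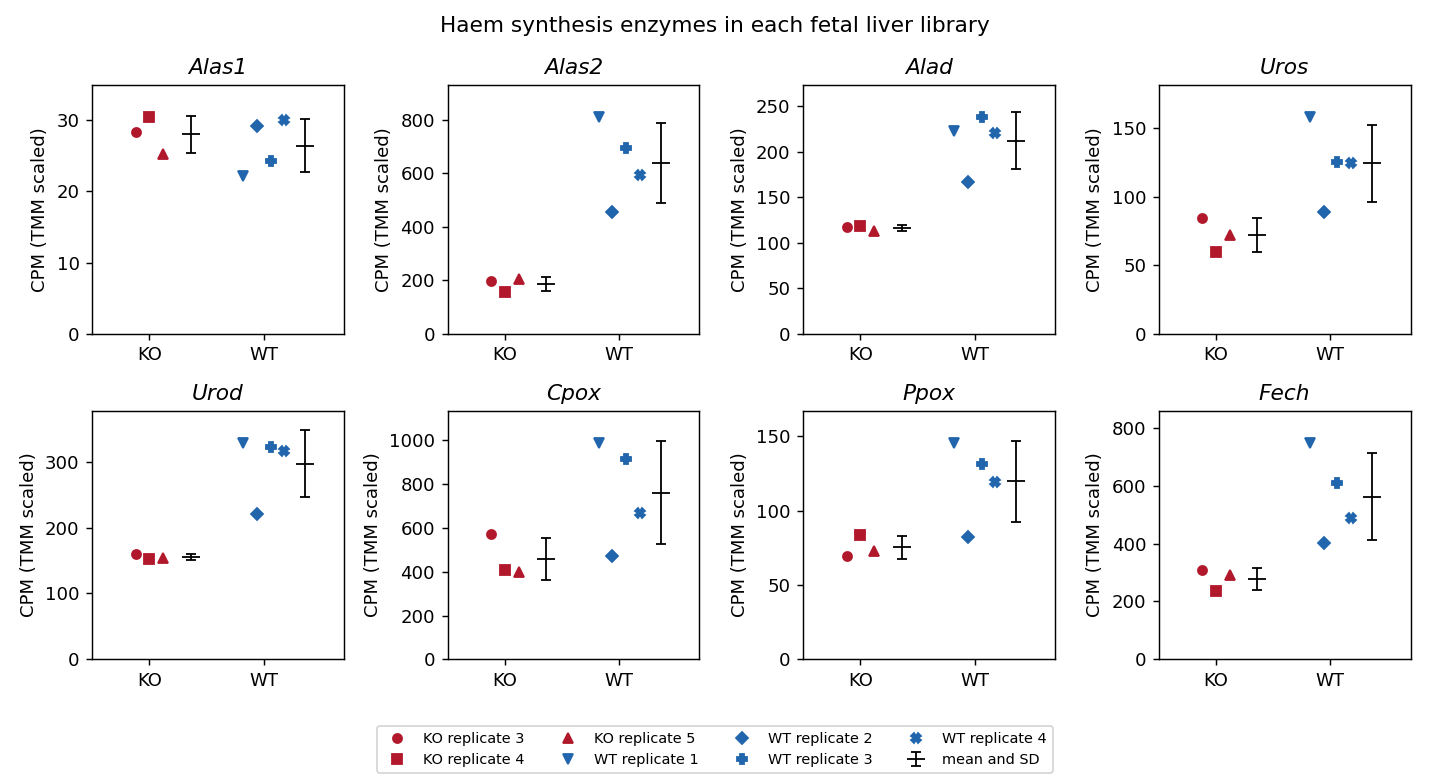
Level of each haem synthesis enzyme, in TMM-scaled CPM on linear axes that start at 0, in each KO library (left) and each WT library (right) of each panel, with the mean and SD of each group beside the points. Alas2 has the widest gap between groups, the Cpox and Ppox groups overlap, and the Alas1 groups lie on each other.

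In the first step, glycine and succinyl-CoA are condensed to 5-aminolevulinate. Alas2 (ENSMUSG00000025270.7; chrX:150547375-150570638, + strand, mm10) had 198, 155 and 206 CPM (read counts scaled to the TMM library size) in KO replicates 3, 4 and 5, and 810, 455, 697 and 596 CPM in WT replicates 1, 2, 3 and 4. Every KO library lay below every WT library, and the highest KO value was under the lowest WT value by a wide margin. It averaged 186 ± 27.5 CPM in KO (SD, n = 3) and 639 ± 151 CPM in WT (SD, n = 4), a log2 fold change of −1.78 ± 0.19 (standard error, edgeR adjusted p = 0.00227, 95% interval −2.21 to −1.35).

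Alas1 (ENSMUSG00000032786.8; chr9:106233455-106248654, − strand) had 28.4, 30.4 and 25.2 CPM in KO, against 22.2, 29.1, 24.3 and 30.04 CPM in WT. The groups overlapped, and KO replicate 4 lay just above the highest WT library. The log2 fold change was 0.08 ± 0.13 (standard error, edgeR adjusted p = 0.762), with a 95% interval of −0.21 to 0.38. That interval lies above the interval of each of the 5 enzymes that fell. The other tools and settings tried gave Alas1 log2 fold changes of 0.0075 to 0.20, none past the threshold.

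For each Alas1 read there were 6.98, 5.09 and 8.15 Alas2 reads in KO, against 36.5, 15.6, 28.6 and 19.8 in WT. Every KO ratio was below every WT ratio. On the log2 scale of CPM plus 0.5, the ratio averaged 2.70 ± 0.34 in KO (SD, n = 3) and 4.55 ± 0.54 in WT (SD, n = 4), a KO minus WT difference of −1.85. A two-sided exact permutation test, over the 35 ways to assign the libraries, gave p = 0.0286, the smallest p this design allows, and the same after Benjamini-Hochberg adjustment over the ratios of Alas2 to all 7 other enzymes. The ratio restates the fold changes of both genes and adds no independent evidence. Without any 1 library the difference lay between −2.05 and −1.64.

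The next enzyme, Alad, joins molecules of 5-aminolevulinate in pairs to form porphobilinogen in the cytosol. Alad (ENSMUSG00000028393.4; chr4:62509169-62519918, − strand) had 117, 119 and 113 CPM in KO, against 223, 166, 238 and 221 CPM in WT. The KO libraries were close to each other and all lay below the WT libraries. The means were 116 ± 3.06 CPM in KO (SD, n = 3) and 212 ± 31.4 CPM in WT (SD, n = 4), with a log2 fold change of −0.87 ± 0.12 (standard error, edgeR adjusted p = 0.00595).

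Uros closes the linear tetrapyrrole into the ring of uroporphyrinogen III. Uros (ENSMUSG00000030979.6; chr7:133686243-133710072, − strand) had 84.2, 59.3 and 71.8 CPM in KO, against 158, 88.6, 125 and 125 CPM in WT. The groups did not overlap, though KO replicate 3 came within a few CPM of WT replicate 2. Uros averaged 71.8 ± 12.4 CPM in KO (SD, n = 3) and 124 ± 28.2 CPM in WT (SD, n = 4), a log2 fold change of −0.79 ± 0.18 (standard error, edgeR adjusted p = 0.0378). This call was lost without KO replicate 4 or 5 or without WT replicate 1, 3 or 4, where the edgeR adjusted p lay between 0.0710 and 0.143, and with the Y-linked level as a further term (0.0616). Without the other libraries it was 0.0356 and 0.00736.

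Urod removes carboxyl groups from that ring to give coproporphyrinogen III, the last cytosolic product. Urod (ENSMUSG00000028684.8; chr4:116989965-116994413, − strand) had 161, 152 and 153 CPM in KO, against 328, 221, 322 and 317 CPM in WT. The WT libraries held close values except replicate 2, which still lay above all KO libraries. The means were 155 ± 4.64 CPM in KO (SD, n = 3) and 297 ± 50.9 CPM in WT (SD, n = 4), with a log2 fold change of −0.93 ± 0.14 (standard error, edgeR adjusted p = 0.00676). Without KO replicate 5 the edgeR adjusted p was 0.0514, and without any other library it was between 0.000519 and 0.0278.

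Back in the mitochondrion, Cpox converts coproporphyrinogen III to protoporphyrinogen IX. Cpox (ENSMUSG00000022742.5; chr16:58670292-58717636, + strand) had 569, 408 and 397 CPM in KO, against 985, 472, 913 and 666 CPM in WT. KO replicate 3 lay above WT replicate 2, so the groups overlapped. The means were 458 ± 96.3 CPM in KO (SD, n = 3) and 759 ± 235 CPM in WT (SD, n = 4), and the log2 fold change of −0.73 ± 0.24 did not pass the test (standard error, edgeR adjusted p = 0.111, 95% interval −1.26 to −0.20).

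Ppox oxidises protoporphyrinogen IX to protoporphyrin IX. Ppox (ENSMUSG00000062729.5; chr1:171275990-171281186, − strand) had 69.4, 83.9 and 72.7 CPM in KO, against 146, 82.4, 131 and 119 CPM in WT. Here KO replicate 4 lay just above WT replicate 2, and the other WT libraries were higher than every KO library. The means were 75.3 ± 7.60 CPM in KO (SD, n = 3) and 120 ± 27.1 CPM in WT (SD, n = 4), with a log2 fold change of −0.67 ± 0.17 (standard error, edgeR adjusted p = 0.0544, 95% interval −1.05 to −0.28).

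Fech inserts iron into protoporphyrin IX and carries an iron-sulphur cluster. Fech (ENSMUSG00000024588.8; chr18:64452914-64490251, − strand) had 309, 235 and 291 CPM in KO, against 747, 401, 608 and 489 CPM in WT. All KO libraries lay below all WT libraries. The means were 278 ± 38.2 CPM in KO (SD, n = 3) and 561 ± 150 CPM in WT (SD, n = 4), a log2 fold change of −1.01 ± 0.20 (standard error, edgeR adjusted p = 0.0210). The call was lost without KO replicate 4 or 5 or WT replicate 3, with edgeR adjusted p of 0.0741, 0.0897 and 0.0570, and kept without any other library, at 0.00561 to 0.0368.

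**Figure D2:**
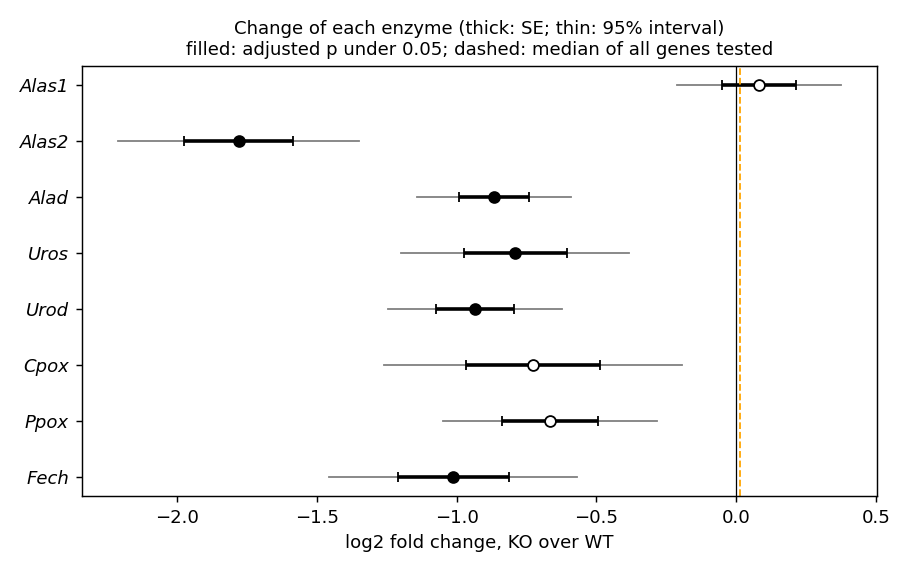
Log2 fold change, KO over WT, of each enzyme from edgeR, with its standard error (thick bar) and 95% interval (thin line), and a dashed line at the median of all genes tested. Filled points passed the adjusted p threshold of 0.05: Alas2, at −1.78, lies farthest from 0, and Alas1 sits at 0.08.

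The same WT libraries were low or high in most of these genes. WT replicate 2 was the lowest WT library in 7 of the 8 genes, the exception being Alas1, and WT replicate 1 was the highest in 6. In 5 of the 8 genes (Alas2, Alad, Uros, Urod and Fech) every KO library lay below every WT library, as did 10.8% of all genes tested. Without WT replicate 2, 7 of the 8 enzymes were called lower, all but Alas1, against 4.73% of all genes tested in that fit. The edgeR adjusted p without it was 0.0215 for Cpox and 0.00403 for Ppox, whereas without any other library it was 0.0801 to 0.332 for Cpox and 0.0881 to 0.191 for Ppox. In the authors' deposited table, 6.86% of its genes had a negative log2 fold change with an adjusted p under 0.05, and 7 of the 8 enzymes were among them. That table gave Alas2 −1.74, Cpox −0.71 with an adjusted p of 0.0185, and Ppox −0.66 with 0.00459.

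Summed over the 8 enzymes, the level was 1536, 1243 and 1329 CPM in KO, against 3418, 1916, 3059 and 2562 CPM in WT. The sums did not overlap, and they averaged 1369 ± 151 CPM in KO (SD, n = 3) and 2739 ± 651 CPM in WT (SD, n = 4).

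To compare levels between genes, CPM were divided by the length of the principal transcript in kilobases. Alas1 had the lowest level of the 8 in both groups, 8.24 ± 0.763 in KO (SD, n = 3) and 7.78 ± 1.11 in WT (SD, n = 4). Alas2 held the fourth place in KO, at 91.4 ± 13.5 CPM per kilobase, and the first place in WT, at 314 ± 74.0. In KO, Cpox stood highest at 148 ± 31.1, above Urod at 104 ± 3.11 and Alad at 93.3 ± 2.46. Alad and Alas2 did not differ beyond their spread in KO. In WT, Alas2 was followed by Cpox at 245 ± 75.9, Urod at 199 ± 34.2 and Alad at 170 ± 25.2. The SDs of neighbours overlapped, but the order was the same within every WT library. Fech, Ppox and Uros lay at 42.3, 41.4 and 40.7 CPM per kilobase in KO, and at 85.4, 65.7 and 70.4 in WT. Their order changed between KO libraries, whereas Fech was the highest of them in every WT library. The order depends on the length taken: per kilobase of all annotated exons, Alas2 came first in both groups, at 77.5 in KO and 266 in WT.

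Alas2 was also lower relative to each of the other enzymes. Its log2 ratio to Fech, the enzyme whose fold change was nearest to its own, was −0.64, −0.60 and −0.50 in KO, against 0.12, 0.18, 0.20 and 0.29 in WT. These ratios are not divided by length, so their sign gives no order of the levels of Alas2 and Fech. The difference of the group means was −0.78. For the other partners the KO minus WT difference of the log2 ratio was −0.91 for Alad, −0.99 for Uros, −0.84 for Urod, −1.07 for Cpox and −1.12 for Ppox. The groups did not overlap for any of the 7 ratios. The exact permutation test gave p = 0.0286 for each ratio, the smallest p this design allows, before and after Benjamini-Hochberg adjustment over the 7. All 7 share the values of Alas2, the enzyme with the lowest fold change. They restate its larger fall, add no independent evidence and are given as a description.

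**Figure D3:**
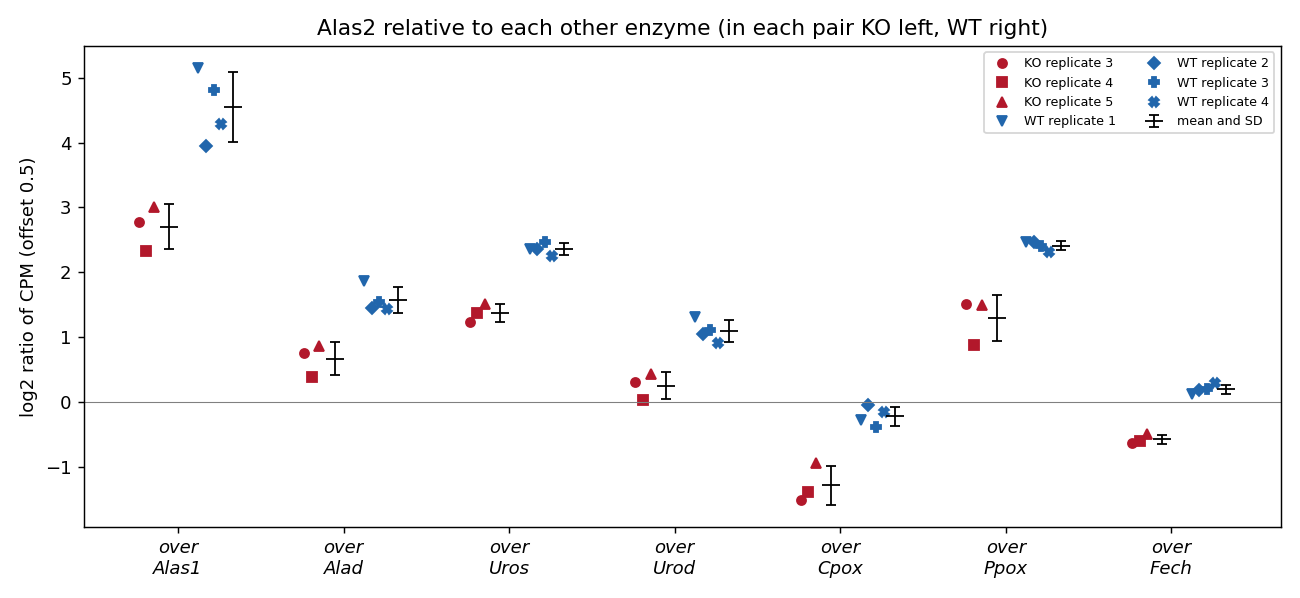
Log2 ratio of Alas2 to each of the other 7 enzymes, from CPM plus 0.5, per KO library (left of each pair) and WT library (right), with the mean and SD of each group beside the points. All KO values lie below all WT values for each partner, and the gap is widest for Alas1 (−1.85).

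Red cell markers were lower in the same libraries. Of 9 erythroblast membrane and cytoskeleton markers, all detected, 5 fell, among them Slc4a1, Tspo2, Sptb and Epb42, against 3.43% of all genes. None rose, also at an unadjusted p under 0.05 or by DESeq2, and their summed level was 1527 to 2474 CPM in KO, against 3091 to 6063 CPM in WT. The count of 5 was 1 without KO replicate 5 (0.706% of all genes), 2 without KO replicate 4 (1.48%) or WT replicate 3 (1.78%), 3 without WT replicate 1 (2.26%) or 4 (2.02%), 5 without KO replicate 3 (2.92%) and 8 without WT replicate 2 (4.73%). Their mean log2 CPM was 7.28 ± 0.30 in KO (SD, n = 3) and 8.33 ± 0.46 in WT (SD, n = 4). WT replicate 2 was again the lowest WT library, at 7.79. Set against this mean as a description, Alas2 lay 0.26 ± 0.20 above it in KO and 0.96 ± 0.14 above it in WT on the log2 scale, with no overlap of the groups. Fech lay 0.84 ± 0.14 above it in KO and 0.76 ± 0.11 in WT, and its groups overlapped, as did those of Alad, Uros, Urod and Ppox. Cpox lay 1.54 ± 0.16 above it in KO and 1.18 ± 0.07 in WT, and Alas1 lay below it, at −2.45 ± 0.37 in KO and −3.59 ± 0.65 in WT, both without overlap. The KO minus WT difference of the marker mean was itself −1.05, so an unchanged gene would lie higher by that amount in KO. The higher places of Cpox and Alas1 restate that fall of the markers and are no rise of either gene. The share of all genes without overlap on this measure was not counted. The part of the markers' lower level in the enzymes' changes was not tested.

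**Figure D4:**
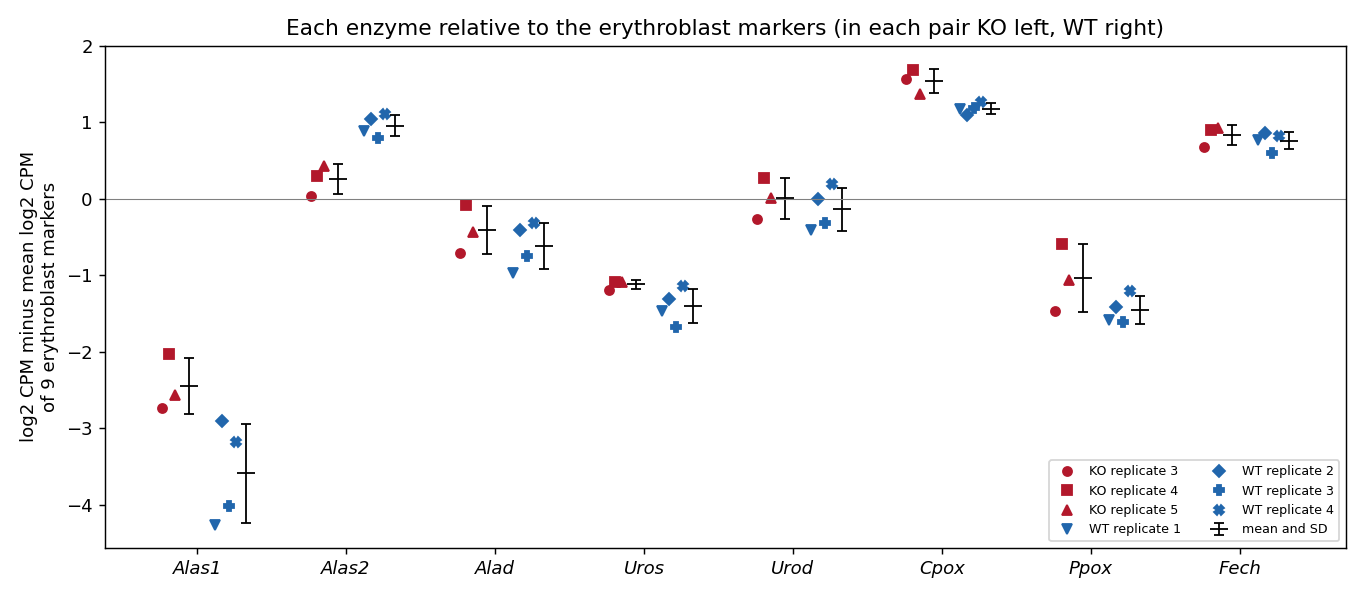
Log2 CPM of each enzyme minus the mean log2 CPM of the 9 erythroblast markers, per KO library (left of each pair) and WT library (right), with the mean and SD of each group beside the points. Alas2 lies lower in KO (0.26, against 0.96 in WT), Cpox and Alas1 lie higher in KO, and the other groups overlap. The marker mean was itself lower in KO, so a higher place is no rise of the gene.

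Markers of the other cell types moved in both directions. Hepatoblast markers, led by Afp and Alb, were abundant in every library, with summed levels of 7107 to 9147 CPM in KO and 5355 to 12033 CPM in WT. Of these 9, 1 fell (Ahsg), against 3.43% of all genes, and DESeq2 called 2 lower, against 6.48%. Leaving out 1 library gave 0 to 3. Apoa1 was also lower at an unadjusted p under 0.05, at −0.61 on the log2 scale, with every KO library below every WT library. Of the macrophage markers 5 of 6 fell, against 3.43% of all genes, with sums of 113 to 137 CPM in KO and 183 to 235 CPM in WT. Of the megakaryocyte markers 4 of 4 fell, against the same 3.43%, with sums of 130 to 151 CPM in KO and 251 to 348 CPM in WT. Of the endothelial markers 3 of 5 rose, against 1.59% of all genes, with sums of 198 to 246 CPM in KO and 119 to 169 CPM in WT. Of the heart muscle markers 2 of 5 rose, Myh6 and Nppa, against the same 1.59% of all genes. The list had sums of 71.9 to 337 CPM in KO and 67.3 to 123 CPM in WT. Myh6 had 37.9, 2.18 and 11.4 CPM in KO replicates 3, 4 and 5, and 0.220 to 0.782 CPM in WT. Nppa had 10.2, 0.309 and 3.05 CPM in those KO replicates, and 0 to 0.0488 CPM in WT, below the level of 3 reads. Leaving out 1 library gave counts of 1 to 5 for the macrophage, 2 to 4 for the megakaryocyte, 1 to 4 for the endothelial and 2 to 3 for the heart muscle markers. The lowest macrophage and endothelial counts were reached only without KO replicate 5. The lowest megakaryocyte and heart muscle counts were reached without that library and also in fits without other libraries. Limma-voom called none of the heart muscle markers. In the fits without 1 library, 0.706% to 4.73% of all genes were called lower. Higher calls ranged from 24 of 16440 genes, without KO replicate 5, to 418 of 15933, without WT replicate 2. None of 5 early progenitor and 5 mesenchyme markers was called by edgeR or DESeq2. Of all genes, edgeR called 3.43% lower and 1.59% higher, and DESeq2 called 6.48% lower. At an unadjusted p under 0.05 Kit and Meis1 were higher and Dcn was lower. The part of these markers in the enzymes' changes was not tested. Pcbp2 itself had 1.95 ± 0.486 CPM in KO (SD, n = 3) and 295 ± 86.9 CPM in WT (SD, n = 4). The WT libraries were not alike in it: WT replicate 1 had 165 CPM, against 329, 347 and 338 CPM in WT replicates 2, 3 and 4.

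Alas2 is on the X chromosome, and the libraries differed in sex-linked RNA. Xist had 2212, 0.816 and 0.970 CPM in KO replicates 3, 4 and 5, against 1.05, 1137, 1316 and 0.966 CPM in WT replicates 1 to 4, and Ddx3y was high where Xist was low. The Alas2 value of the Xist-positive KO library, 198 CPM, lay between those of the other two, and among WT libraries the Xist-positive replicates held 455 and 697 CPM, against 810 and 596 CPM in the others. With the Y-linked level as a further term, the log2 fold change of Alas2 was −1.80 (edgeR adjusted p = 0.00740). Over all settings tried, the largest adjusted p of Alas2 was 0.0160.

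Haem synthesis depends on carriers and partners in the mitochondrion. Of 18 such genes tested, 7 fell by edgeR, against 3.43% of all genes, and 11 by DESeq2, against 6.48%. None rose, also at an unadjusted p under 0.05, with a median log2 fold change of −0.40. Glrx5, which supplies iron-sulphur clusters, fell to 117 CPM in KO, against 211 CPM in WT (log2 fold change −0.85 ± 0.13, standard error, edgeR adjusted p = 0.00656). Fam210b, an erythroid mitochondrial membrane protein, had 84.7 CPM in KO and 177 CPM in WT (log2 fold change −1.06 ± 0.21, edgeR adjusted p = 0.0197). Slc25a38, the glycine carrier that feeds the first step, fell by 0.68 on the log2 scale, to 49.1 CPM in KO, against 78.9 CPM in WT. Slc25a39, which carries glutathione into mitochondria, fell by 0.56, to 87.7 CPM in KO, against 130 CPM in WT.

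The largest change among these carriers was in Slc25a37, mitoferrin 1, which brings iron into erythroid mitochondria: it had 565 CPM in KO and 1433 CPM in WT (log2 fold change −1.34 ± 0.29, edgeR adjusted p = 0.0287). Its paralogue Slc25a28, mitoferrin 2, which is used in other cells, had 14.2 CPM in KO and 13.8 CPM in WT and was not called. Tmem14c, a porphyrin transporter, and Atpif1, an inhibitor of the mitochondrial ATPase, also fell, with log2 fold changes of −0.59 and −0.47. The transporters Abcb10 and Abcb6 had −0.77 and −0.53 and narrowly missed the threshold, with edgeR adjusted p of 0.0537 and 0.0507. In 11 of the 18 genes every KO library lay below every WT library, as in 10.8% of all genes tested. The count of 7 was 1 without KO replicate 5, 2 without KO replicate 4 or WT replicate 3, 4 without WT replicate 1 or 4, 7 without KO replicate 3 and 9 without WT replicate 2. The share of all genes called lower in these fits was 0.706% to 4.73%, as given for each fit beside the enzymes. Glrx5 passed the test in each of those fits.

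**Figure D5:**
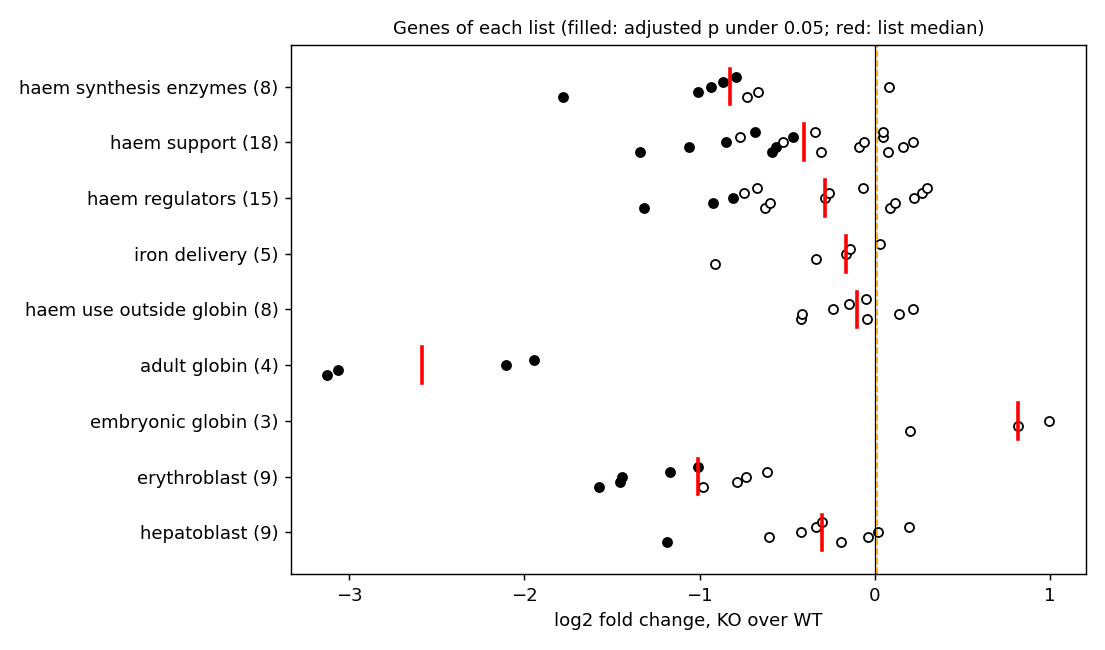
Log2 fold change, KO over WT, of every tested gene of the haem synthesis enzymes and of the lists around them, 1 point per gene, filled where the edgeR adjusted p was under 0.05, with a red bar at the median of each list and a dashed line at the median of all genes tested. Red cell (erythroblast) and hepatoblast markers stand below the lists. Adult globins lie lowest, 7 of the 8 enzymes, 13 of the 18 support genes and 6 of the 8 genes of haem use outside globin lie below 0, and no gene of haem use is filled.

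Of 15 transcription factors, iron sensors and haem sensors, 3 fell by edgeR, against 3.43% of all genes, and 7 by DESeq2, against 6.48%. None rose by either, Ireb2 and Ldb1 were higher at an unadjusted p under 0.05, and the median log2 fold change was −0.28. Nfe2, an activator of globin and haem genes, had 57.0, 39.6 and 46.6 CPM in KO, against 148, 81.8, 130 and 116 CPM in WT (log2 fold change −1.32 ± 0.20, edgeR adjusted p = 0.00673). Klf1, which activates adult globin, had 78.8 CPM in KO and 138 CPM in WT (log2 fold change −0.81 ± 0.18, edgeR adjusted p = 0.0304). Tal1 had −0.92 ± 0.23 (edgeR adjusted p = 0.0466), with KO replicate 3 above WT replicate 2. Gata1, the erythroid factor known to drive Alas2, had 59.9 CPM in KO and 95.6 CPM in WT and did not pass the test (log2 fold change −0.67 ± 0.19, edgeR adjusted p = 0.0707). Eif2ak1, the kinase that slows translation when haem is short, had a log2 fold change of −0.75 (edgeR adjusted p = 0.0534). Ireb2 and Aco1, the iron regulatory proteins that bind the Alas2 element printed above, had 0.29 and 0.11 and were not called. The count of 3 in this list was 1 without KO replicate 4 or 5 or without WT replicate 1, 3 or 4, 5 without KO replicate 3 and 7 without WT replicate 2, while the share of all genes was 0.706% to 2.26% in the first 5 of these fits, 2.92% without KO replicate 3 and 4.73% without WT replicate 2. Nfe2 passed the test in each of those fits.

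None of the 5 genes of iron delivery to the cell was called by edgeR or DESeq2, against 3.43% and 6.48% of all genes called lower. Tfrc alone was lower at an unadjusted p under 0.05. Tfrc, the transferrin receptor, had 766, 380 and 438 CPM in KO, against 1375, 541, 1185 and 877 CPM in WT, with KO replicate 3 above WT replicate 2 (log2 fold change −0.91 ± 0.32, edgeR adjusted p = 0.130). Slc11a2, the endosomal iron carrier, had −0.34, Steap3, the ferrireductase, −0.14, Snx3 −0.16 and Exoc6 0.03. Exoc6 turned to −0.10 without WT replicate 2.

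Genes that handle or carry haem outside haemoglobin were not called either, 0 of 8 with edgeR, against 3.43% of all genes called lower. At that share, a count of 0 among 8 genes sets no contrast to the enzymes. Cat and Cyb5a were lower at an unadjusted p under 0.05, and DESeq2 called these 2, against 6.48% of all genes. In both, every KO library lay below every WT library, as in 10.8% of all genes tested. Leaving out 1 library gave 0 to 2 calls by edgeR, with 2 reached without WT replicate 2 (4.73% of all genes). Cox10 and Cox15, which make haem A for cytochrome oxidase, had log2 fold changes of −0.05 and 0.14, and Hccs, which attaches haem to cytochrome c, had 0.22. Cycs and Cyc1, which encode cytochromes, had −0.24 and −0.15. Cat, catalase, and Cyb5a, cytochrome b5, had −0.42 each, with edgeR adjusted p of 0.0628 and 0.0569. Por, the reductase of microsomal cytochromes, had −0.04. The signs of Cox10 and Por turned under total-count scaling, to 0.07 for each.

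The main protein users of haem in these cells are the globins. All 4 adult globin genes fell, against 3.43% of all genes. Hba-a1 had 9515 CPM in KO and 36615 CPM in WT (log2 fold change −1.94), and Hbb-bs had 2188 CPM in KO and 18286 CPM in WT (−3.06). Hba-a2 and Hbb-bt had −2.11 and −3.12. Paired globin copies are nearly identical, so how reads were divided within a pair is uncertain. The embryonic globins Hbb-bh1 and Hbb-y had log2 fold changes of 0.82 and 0.20, and Hba-x had 1955 CPM in KO and 981 CPM in WT; they were not called by edgeR, though Hbb-bh1 and Hba-x were higher at an unadjusted p under 0.05 and DESeq2 called Hbb-bh1. Without KO replicate 5 the log2 fold change of Hba-x was 0.47 and that of Hbb-y turned to −0.083. Against the 29.1% of WT of Alas2, the mean of Hba-a1 in KO was 26.0% of WT and that of Hbb-bt 11.5%.

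Among 10820 genes with at least 5 CPM, those whose pattern over the 7 libraries was most like that of Alas2 included Trim10, Ppp1r15a, Hba-a1 and Darc. Likeness was the mean absolute difference of centred log2 CPM, which was 0.0667 for Trim10, 0.0990 for Ppp1r15a, 0.107 for Hba-a1 and 0.109 for Darc. Trim10 had 75.5 CPM in KO and 239 CPM in WT, and Ppp1r15a 35.2 CPM in KO and 118 CPM in WT. The genes most like Alas1 were Csf2ra, Grip1, Mgat4b, Cpne2 and Pdk2, at 0.0391 to 0.0507, with log2 fold changes of 0.02 to 0.15.

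Of the 8 enzymes, 5 overlap a gene on the other strand, and the sources used here do not say whether strand was used in counting, so reads could be shared. Apex2, which overlaps Alas2, had a log2 fold change of 0.09, with 18.8 CPM in WT. Bccip, which overlaps Uros, had 92.1 CPM in KO and 96.5 CPM in WT, and B4galt3, which overlaps Ppox, had 22.0 CPM in KO and 21.8 CPM in WT. None of these genes was called. The genes that overlap Cpox and Alas1 had 8 and 37 reads over all libraries.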

How the data were processed

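Messenger RNA libraries from mouse fetal liver, 3 labelled KO and 4 labelled WT, were compared. Per the labels' protocols, Trizol-extracted total RNA was the input of the TruSeq stranded mRNA kit. The submitters' processing notes name cutadapt 1.4.2, TopHat2, HTSeq, DESeq2, DESeq and the build mm10, without settings. Each library has a deposited file of whole-number HTSeq counts, not normalized. The authors' deposited table gives, for KO against WT, a log2 fold change, a p-value unadjusted and adjusted, a test statistic used here as a score, and a mean normalized signal; its sign was checked against the counts. HTSeq lines that name no gene were left out (reads in no feature 6.75% to 7.61% in KO and 4.89% to 5.94% in WT; not unique 11.3% to 14.7% in KO and 15.2% to 19.6% in WT).

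Counts were tested with edgeR 4.0.16 in R 4.3.3 (filterByExpr, TMM, glmQLFit with group as its only term, all 7 libraries), which left 16226 genes, with a threshold of 0.05 on the Benjamini-Hochberg adjusted p. The script was tested on simulated counts. CPM are TMM scaled, and a count of 3 reads, the lowest limit at this depth, equals 0.0673 to 0.0940 CPM, for counting error only. Alternatives were DESeq2 1.42.0, limma-voom 3.58.1, other scalings and filters, a replicate block, a Y-linked covariate and leaving out each library. Names absent from the authors' table, gene coordinates and lengths came from GENCODE M21 (GRCm38), and promoter windows from RefSeq (GRCm38.p6).

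The enzymes, the lists and the rule for named genes were chosen with earlier results of these data known, so no p over a list is given. The rule named all 8 enzymes, up to 4 genes with the smallest p of each list, every gene of lists of 8 or fewer, and the 5 genes most like Alas2 and Alas1. Slc25a37, Slc25a28, Tmem14c, Atpif1, Abcb10, Abcb6, Gata1, Ireb2, Aco1, Ldb1, Epb42, Kit, Meis1, Dcn and the overlapping genes were named after their values were seen. The enzyme of a further step of the pathway and some genes that the rule named are not reported here.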

Additional observations from a re-analysis of the deposited data

Results flagged for a closer look

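Among 77 sets of 4 WT values examined, 2 held a library that stood apart from the other 3, a number below the share of about 1 in 20 that chance gives. WT replicate 2 had 221 CPM of Urod, below the 317 to 328 CPM of the other WT libraries and above the 152 to 161 CPM of the KO libraries. The same library had 59.9 CPM of Slc25a38, below the 84.1 to 87.3 CPM of the other WT libraries and above the 47.8 to 50.5 CPM of the KO libraries. Groups of 3 and the values of Pcbp2 were not examined in this way.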

How the results depend on the processing

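Alas2 and Alad were called lower under all 16 alternatives and Alas1 under none. Over all genes, the 556 lower calls became 1052 with DESeq2, 1204 with the replicate block and 116 to 753 without 1 library. The 258 higher calls became 614, 852 and 24 to 418 in those fits, and 651 with total-count scaling, under which the median over all genes was 0.14, against 0.01. Without 1 library, 2 to 7 enzymes, 1 to 9 support genes and 1 to 7 regulators were lower. DESeq2 called 11 support genes and 7 regulators lower, the replicate block 7 enzymes and 7 regulators, no filter 7 regulators and the Y-linked covariate 1 regulator. Total-count scaling called 1 regulator higher, Ireb2.

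With the Y-linked covariate Uros had −0.80 (edgeR adjusted p = 0.0616). Cpox had −0.73 with DESeq2 and −0.69 with the replicate block, and Ppox −0.67 without a filter and with DESeq2, −0.66 at a filter of 5 CPM and −0.71 with the block, all called, at adjusted p of 2.28e-05 to 0.0488. Without 1 library the log2 fold changes ranged over −1.92 to −1.65 for Alas2, −0.93 to −0.66 for Uros, −1.06 to −0.88 for Urod, −0.91 to −0.58 for Cpox, −0.82 to −0.56 for Ppox and −1.15 to −0.84 for Fech, and the ratio of Alas2 to Alas1 over −2.05 to −1.64. Those 6-library permutation designs cannot reach p under 0.05.

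Signs turned in the following genes, none of them called. Exoc6 had −0.00762 with the replicate block and −0.10 to 0.11 without 1 library. Cox10 had 0.0670 with total-count scaling and −0.15 to 0.0107 without 1 library. Por had 0.0748 and −0.20 to 0.0517 in those fits, and Hbb-y −0.083 to 0.45 without 1 library. With the replicate block Slc25a28 had −0.00598 and Afp −0.0630, and with total-count scaling Bccip had 0.0592. Without 1 library Slc25a28 ranged over −0.0621 to 0.13, Afp over −0.18 to 0.18, B4galt3 over −0.0541 to 0.0600, Csf2ra over −0.0530 to 0.0898 and Mgat4b over −0.0153 to 0.13. The cause of these changes was not tested. Groups share replicate numbers 3 and 4, whose libraries deviated together (r = 0.37 and 0.34), but the labels do not say that a number marks a pair. Pairs of unlike numbers had r of −0.38 to 0.17, and centring within each group forces negative values beside positive ones. Both libraries numbered 3 were Xist-positive and both numbered 4 were not, and the part of sex here was not tested. The replicate block rests on the shared numbers 3 and 4 alone and has 1 residual degree of freedom, so its calls are given only as values.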
